A study of Caenorhabditis elegans with 28 samples.

Results

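F48G7.5, Y39G8B.10, C17E7.13, K09C6.9, T25C12.3 and F09C8.1 are 6 of the 20392 *Caenorhabditis elegans* genes in the counts table. They were picked because their mRNA stood far lower or far higher in *ebax-1(tm2321)* larvae than in wild type at matched developmental time, and because the gene name table lists them by sequence name alone, as it does 8368 genes of the counts table. For T25C12.3 this no longer holds in full: RefSeq gives it the symbol *hrg-11.3*. The other 5 have no symbol or described product in the sources used here, and no role is assigned to them. Since the genotype difference at matched hours chose these genes, that difference is given below as a description and is not tested. The rhythm within each genotype, the neighbouring genes and the *hrg* genes other than T25C12.3 played no part in the choice and are tested. The *hrg* genes were listed because of the symbol of T25C12.3, after the data were seen.

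mRNA was followed in whole larvae of *ebax-1(tm2321)* IV (strain HW3527), which carries a deletion in *ebax-1*, and of the wild-type strain N2. Both were hatched without food, plated as L1 larvae on food at 25 °C, left untreated and sampled every hour from 18 h to 31 h after plating, so that each genotype had 14 poly(A) RNA libraries. There was 1 library per genotype and hour and 1 time course per genotype. Errors and p-values therefore reflect how far hourly libraries scatter about a fitted curve, and genotype cannot be told apart from other differences between the cultures.

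EBAX-1, known as ZSWIM8 in mammals, recognises the proteins that a Cullin-RING ubiquitin ligase will mark. It acts in target-directed microRNA degradation, a pathway that removes particular microRNAs. Worm larvae grow through repeated molts, and many of their mRNAs peak once in each larval stage, so that a level read at a single hour depends on where in the cycle the animals are. A mutant that develops late must therefore be set against wild type of the same stage and not of the same hour.

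Libraries held 5701773 to 9304062 counts in the mutant and 5120921 to 9604238 in wild type, and a level of 1 CPM stood for 5.7 to 9.3 reads in the mutant and 5.1 to 9.6 reads in wild type. CPM are counts per 1000000 counts of the library, with no further scaling. The mutant ran about 3 h behind, so mutant libraries of 21 to 31 h were paired with wild-type libraries of 18 to 28 h, giving 11 pairs, and the 3 mutant libraries of 18 to 20 h and the 3 wild-type libraries of 29 to 31 h stayed unpaired. *ebax-1* mRNA itself averaged 29.6 ± 9.58 CPM in the mutant and 75.3 ± 37.1 CPM in wild type over the paired hours (SD, n = 11 each) and was lower in the mutant in 11 of 11 pairs. Reads from outside the deletion still count toward the gene. In such bulk samples, fewer cells of a type and less RNA per cell cannot be told apart.

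All 6 genes are annotated as protein coding with a single transcript. In the WBcel235 annotation, which is not the build used for counting, F48G7.5 has 2 exons with 622 bases, K09C6.9 5 exons with 644 bases and C17E7.13 5 exons with 1077 bases, all on chromosome V. Y39G8B.10 lies on chromosome II and has 3 exons with 594 bases. T25C12.3 and F09C8.1 are on chromosome X, with 32 exons and 6540 bases for T25C12.3 and 10 exons and 1231 bases for F09C8.1. All 6 are on the minus strand, as are 49.7% of the annotated genes, and none is on chromosome IV, which carries *ebax-1*. C17E7.13 shares 128 exonic bases on the same strand with C17E7.9, so that reads there could belong to either, but C17E7.9 averaged only 0.0417 CPM in the mutant and 0.037 CPM in wild type (n = 14 each).

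Per length, the order of the genes differed between the genotypes. T25C12.3 had the highest mean level in both, 40.6 CPM per kilobase of exon in the mutant and 117 in wild type (mean of 14 libraries). F09C8.1 came next in the mutant at 18.7 CPM per kilobase and stood at 5.08 in wild type, where only C17E7.13 was lower. F48G7.5 was at 5.63 in the mutant and 31.9 in wild type. K09C6.9 followed with 3.53 in the mutant and 12.2 in wild type, then Y39G8B.10 with 2.45 and 6.16, and C17E7.13 was lowest in both genotypes with 1.07 in the mutant and 2.93 in wild type. The ranges over the 14 libraries overlapped for every neighbouring pair in this order in both genotypes. T25C12.3, for example, ran from 35.8 to 50.9 CPM per kilobase in the mutant and F09C8.1 from 5.17 to 40.1. By median, K09C6.9 stood above F48G7.5 in both genotypes, at 3.74 against 3.14 in the mutant and 12.9 against 9.79 in wild type.

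**Figure D1:**
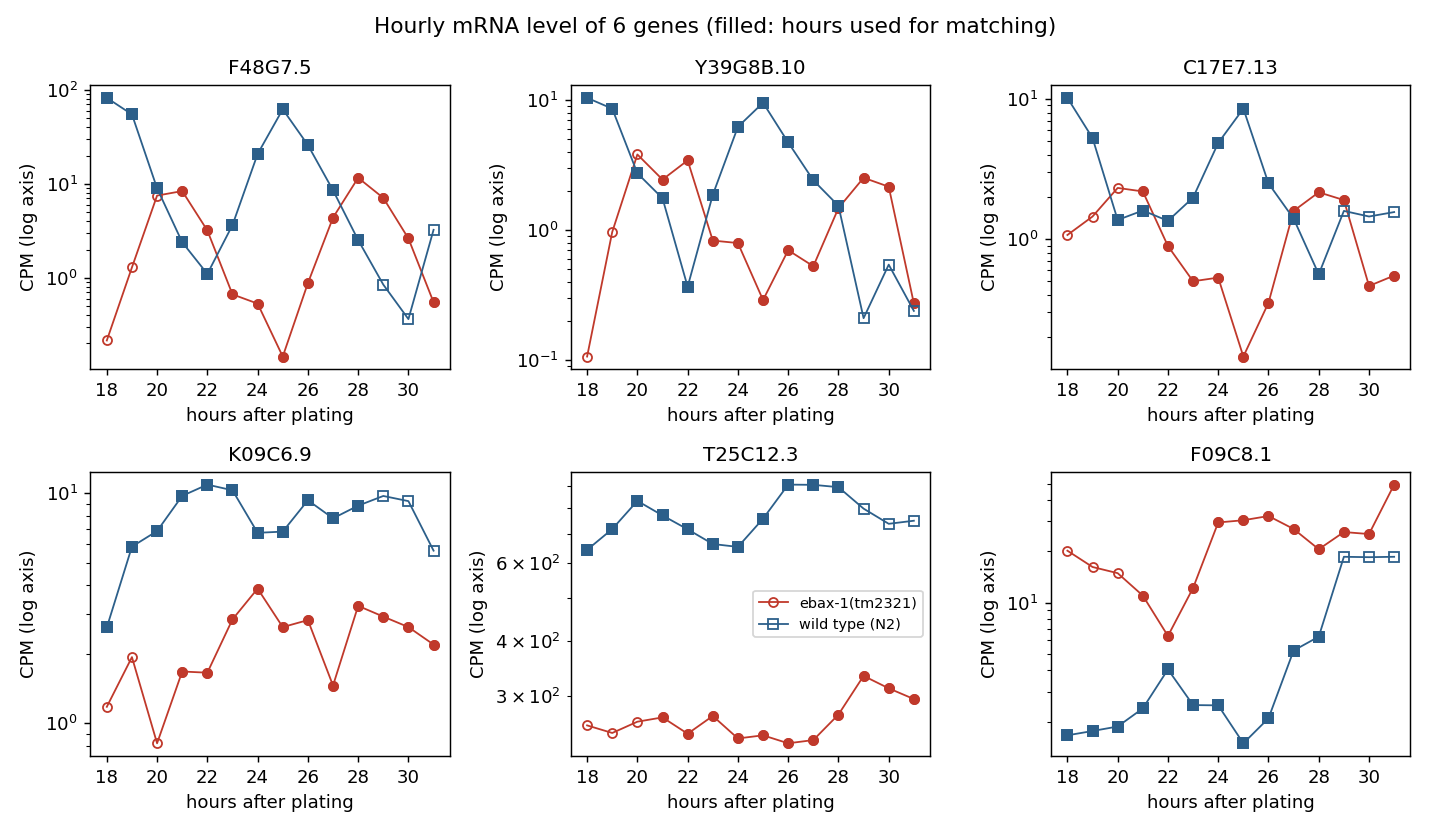
Each panel plots 1 gene's level in CPM on a log axis against hours after plating, in *ebax-1(tm2321)* (red circles) and wild type (blue squares), 1 library per point, with filled symbols for the 11 hours per genotype used in matching. F48G7.5, Y39G8B.10 and C17E7.13 cycle in both genotypes, K09C6.9 and T25C12.3 run below wild type at each of 14 hours, and F09C8.1 runs above wild type at each of 14 hours, with a wild-type step to 18.6 CPM at 29 h.

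F48G7.5 cycled strongly in both genotypes, with low crests in the mutant and high ones in wild type. In the mutant it was at 0.215, 1.29, 7.5, 8.38, 3.19, 0.666, 0.531, 0.145, 0.877, 4.37, 11.6, 7.08, 2.62 and 0.549 CPM from 18 h to 31 h, and in wild type at 82.3, 54.9, 8.97, 2.39, 1.1, 3.64, 20.8, 62.2, 25.9, 8.54, 2.52, 0.846, 0.363 and 3.24 CPM. There were crests at 21 h and 28 h in the mutant, and at 18 h and 25 h in wild type. As 18 h was the first sampled hour, the first wild-type maximum may lie earlier. The ranges overlapped because both genotypes fell close to 0 between crests, with 1 read at 25 h in the mutant (0.145 CPM, 95% counting interval 0.00368 to 0.81, exact Poisson) and 2 reads at 30 h in wild type (0.363 CPM, interval 0.0439 to 1.31). The crests did not come near each other: the first was 9.83 times and the second 5.36 times as high in wild type as in the mutant.

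Matched by stage, F48G7.5 averaged 3.64 ± 3.84 CPM in the mutant and 24.8 ± 28.5 CPM in wild type (SD, n = 11 hours each), a ratio of means of 6.83 in favour of wild type. All 11 pairs had less in the mutant, which held for 3.65% of 14022 genes tested, by log2 CPM ratios of -4.11 (wild-type 19 h) to -1.70 (wild-type 27 h), and the fitted mean difference was -2.61 log2 (SE 0.22). Without matching, the picture was mixed: at the same hour after plating the mutant was lower in 9 of 14 hours and higher in 5, because a mutant crest then met a wild-type trough. The gap was widest in the first 3 pairs, at log2 ratios of -3.30, -4.11 and -3.75, against -2.93 to -1.70 in the other 8.

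Y39G8B.10 and C17E7.13 cycled in the same hours as F48G7.5, at lower levels. Y39G8B.10 ran from 0.107 CPM at 18 h through 3.82 at 20 h and 3.44 at 22 h to 0.291 at 25 h, 2.53 at 29 h and 0.274 at 31 h in the mutant. In wild type it was at 10.4 CPM at 18 h, 0.368 at 22 h, 9.54 at 25 h and 0.211 at 29 h. Its first crest was 2.73 times and its second 3.77 times as high in wild type as in the mutant. C17E7.13 had crests of 2.32 CPM at 20 h and 2.16 CPM at 28 h in the mutant, around a trough of 0.145 CPM at 25 h, and of 10.2 CPM at 18 h and 8.55 CPM at 25 h in wild type, around 1.35 CPM at 22 h. In wild type C17E7.13 was lowest at 28 h, at 0.561 CPM (4 reads), and stood at 1.59, 1.45 and 1.56 CPM from 29 h to 31 h. For both genes 18 h was the first sampled hour, so the first wild-type maximum may lie earlier. Their first mutant crests, at 20 h, fell outside the paired hours.

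Both genes were lower in the mutant in all 11 pairs, but the counts behind single pairs were small. Y39G8B.10 averaged 1.41 ± 1.08 CPM in the mutant and 4.57 ± 3.58 CPM in wild type (SD, n = 11 each), with pair log2 ratios of -3.56 to -0.16 and a fitted difference of -1.70 log2 (SE 0.25). C17E7.13 averaged 1.02 ± 0.776 CPM in the mutant and 3.60 ± 3.23 CPM in wild type, with pair log2 ratios of -3.21 to -0.03 and a fitted difference of -1.68 log2 (SE 0.25). Y39G8B.10 rested on 1 to 28 reads a library in the mutant and 2 to 88 in wild type, and C17E7.13 on 1 to 17 and 4 to 86. The 95% counting intervals of the libraries in a pair lay apart in 4 of 11 pairs for each, so most single pairs could not be resolved at this depth. For F48G7.5 they lay apart in 9 of 11. These intervals cover counting error only.

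K09C6.9 and T25C12.3 were lower in the mutant at every hour, matched or not, as 0.713% of genes tested were at 14 of 14 same hours. K09C6.9 ran at 1.18, 1.94, 0.819, 1.68, 1.66, 2.83, 3.85, 2.62, 2.81, 1.46, 3.24, 2.91, 2.62 and 2.2 CPM from 18 h to 31 h in the mutant. In wild type it ran at 2.61, 5.86, 6.85, 9.74, 10.9, 10.3, 6.73, 6.81, 9.32, 7.78, 8.83, 9.73, 9.24 and 5.63 CPM. The wild-type library of 18 h was the lowest of its genotype and lay inside the mutant range, and the 13 later wild-type libraries all exceeded the highest mutant library. Over the paired hours it averaged 2.53 ± 0.73 CPM in the mutant and 7.80 ± 2.39 CPM in wild type (SD, n = 11 each), and the fitted difference was -1.63 log2 (SE 0.14). Counting intervals lay apart in 10 of 11 pairs.

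T25C12.3 was by far the most steadily lower of the 6. It was at 257, 247, 262, 268, 246, 270, 240, 244, 234, 238, 272, 333, 312 and 295 CPM from 18 h to 31 h in the mutant. In wild type it was at 644, 718, 832, 771, 717, 664, 654, 758, 906, 905, 894, 799, 738 and 750 CPM. The highest mutant library, at 29 h, was below the lowest wild-type library, at 18 h, and the groups did not overlap over all 28 libraries. Such a separation in the lower direction was seen for 7 of 14022 genes tested (0.0499%, against 0.185% in the higher direction), and in the matched hours alone for 0.335%. The libraries left out of the matching came from the same cultures and do not repeat the comparison independently. They were at 257, 247 and 262 CPM in the mutant of 18 to 20 h and at 799, 738 and 750 CPM in wild type of 29 to 31 h.

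In relative terms T25C12.3 varied little, with a coefficient of variation of 11.1% in the mutant and 11.7% in wild type (n = 14 each). Over the paired hours it averaged 268.5 ± 33.0 CPM in the mutant and 769.4 ± 101 CPM in wild type (SD, n = 11 each), a wild-type level 2.87 times as high. The pair log2 ratios ran only from -1.68 to -1.26, and the fitted difference was -1.56 log2 (SE 0.03). This SE was the smallest of the 6, and by p-value T25C12.3 ranked first among all genes tested, a rank that follows from the contrast it was chosen on. It rested on at least 1334 reads in every library, so counting error was small beside the spread between hours.

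F09C8.1 went the other way and was higher in the mutant at every hour, as 1.68% of genes tested were at 14 of 14 same hours and 6.87% in 11 of 11 pairs. In the mutant it stood at 20.2, 16.2, 14.9, 11, 6.37, 12.2, 29.6, 30.5, 32.3, 27.1, 20.6, 26, 25.3 and 49.4 CPM from 18 h to 31 h. In wild type it stood at 1.66, 1.76, 1.87, 2.39, 4.05, 2.5, 2.49, 1.49, 2.09, 5.23, 6.31, 18.6, 18.5 and 18.6 CPM. The 11 paired wild-type libraries were all below the lowest mutant library, a separation that 0.435% of genes tested had in this direction. Its margin was within counting error. The highest paired wild-type library, at 28 h, had 6.31 CPM (45 reads, counting interval 4.6 to 8.44). The lowest mutant library, at 22 h, had 6.37 CPM (50 reads, counting interval 4.73 to 8.4). The 3 unpaired wild-type libraries of 29 to 31 h were not below the lowest mutant library. They lay within the mutant range, after a 2.95-fold step between 28 h and 29 h.

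Over the paired hours F09C8.1 averaged 24.6 ± 11.97 CPM in the mutant and 2.89 ± 1.60 CPM in wild type (SD, n = 11 each), 8.50 times as high in the mutant. Pair log2 ratios ran from 1.86 to 3.80 and the fitted difference was 3.01 log2 (SE 0.10). With all 28 libraries set side by side at the same hour it was 2.31 log2. The late wild-type rise enters only this second comparison, and no mutant library of the corresponding stage was sampled. At the same hour, the counting intervals lay apart in 12 of 14 hours.

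**Figure D2:**
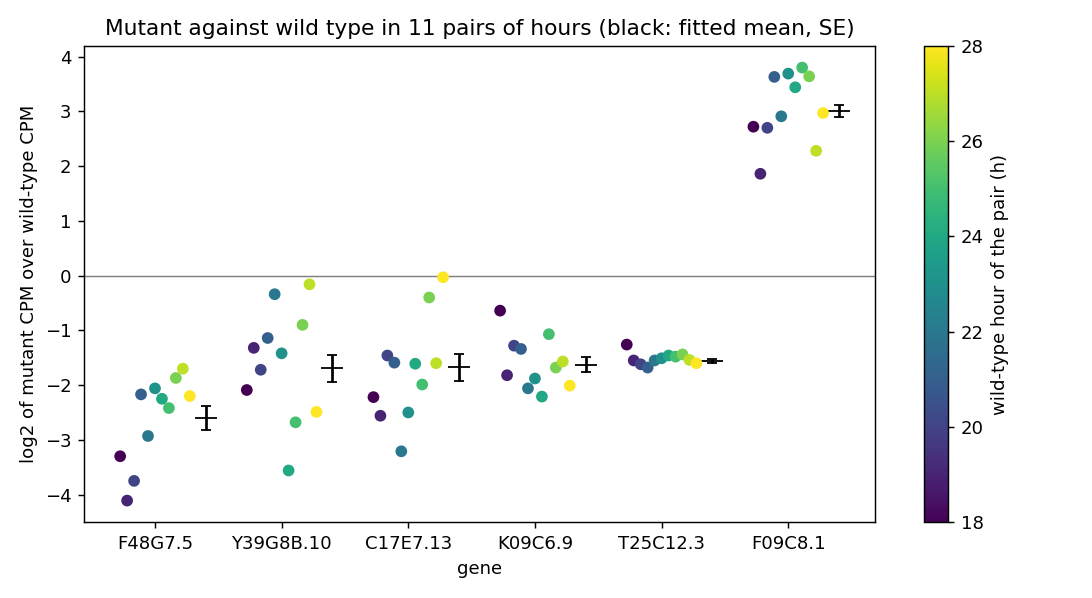
The log2 ratio of mutant CPM over wild-type CPM (y axis) is plotted for each gene (x axis) in 11 pairs, with the mutant taken 3 h later and points coloured by wild-type hour, and the black mark beside each gene is the fitted mean difference with its SE. T25C12.3 pairs lie within -1.68 to -1.26, the pairs of the 3 cycling genes spread from -4.11 to -0.03, and F09C8.1 lies at 1.86 to 3.80.

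Against the whole table, 18.9% of 14022 genes passed the matched test at an adjusted p under 0.01 (edgeR, Benjamini-Hochberg), 9.16% lower and 9.73% higher in the mutant. All 6 genes met these marks, as the choice fixed. The median fitted difference over the 6 genes, also set by the choice, was -1.65 log2, and over all genes tested it was 0.04 log2. Among the 899 sequence-name-only genes that passed, the 5 lower genes ranked second to sixth from the bottom. C27D9.2 lay further down at -4.87 log2 (SE 0.61) and was not chosen. T25C12.3 was just inside at -1.56 and C33E10.8 just outside at -1.49 (SE 0.37). F09C8.1 ranked sixth from the top, below T13B5.9 at 3.07 and 4 others.

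The 6 belong to a large class. Of 5505 genes known only by sequence name and tested, 538 were higher and 361 lower in the mutant (16.3%), and of 8080 named genes 804 were higher and 910 lower (21.2%). The difference between these shares was not tested.

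Whether the 6 genes oscillate was asked in each genotype by itself, by fitting a 7 h wave (cosine plus sine) together with a straight line over the hours. Oscillation was called where the wave had an adjusted p under 0.01 and reached at least 0.5 log2 above its mid-line, which is its amplitude. By this rule 4 of the 6 oscillated in the mutant and 3 in wild type, where 18.3% of 13164 and 19.5% of 14016 genes did. F48G7.5, Y39G8B.10 and C17E7.13 oscillated in both. F09C8.1 was called only in the mutant, with amplitudes of 0.74 log2 there and 0.70 log2 in wild type. This difference in calls was not tested.

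F48G7.5 had the largest amplitude, 2.44 log2 in the mutant (SE 0.21, edgeR adjusted p = 3.45e-06) and 2.78 log2 in wild type (SE 0.22, adjusted p = 1.82e-06). The mutant value was the 19th largest of the 2415 oscillating genes there, and the wild-type value the 336th of 2738. Fitted crests came at 20.95 h and 27.95 h in the mutant and at 18.31 h and 25.31 h in wild type. The low level in the mutant thus went with a rhythm that spanned a 29.4-fold peak-to-trough range, against 46.9-fold in wild type.

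Y39G8B.10 had amplitudes of 1.44 log2 in the mutant (SE 0.31, edgeR adjusted p = 0.00556) and 1.66 log2 in wild type (SE 0.30, adjusted p = 0.00158), and C17E7.13 of 1.10 log2 (SE 0.23, adjusted p = 0.00424) and 1.34 log2 (SE 0.19, adjusted p = 0.000244). At these low counts the calls were close to the threshold. The mutant call of Y39G8B.10 was lost without the library of 18, 22, 25, 26, 29 or 31 h (adjusted p 0.0102 to 0.0198), and its wild-type call without 25 h (0.0111). The mutant call of C17E7.13 was lost without 20, 21 or 28 h (0.0103 to 0.0158). The calls of F48G7.5 held without any one library.

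**Figure D3:**
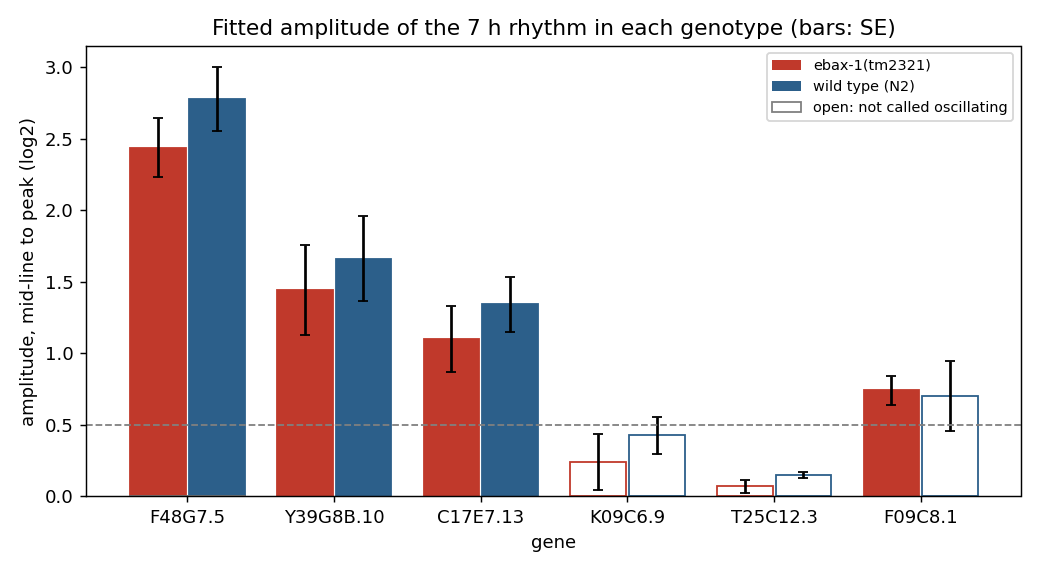
Bars give the fitted amplitude of the 7 h rhythm in log2 for each gene in *ebax-1(tm2321)* (red) and wild type (blue), with SE as error bars, filled where the gene was called oscillating and with the 0.5 log2 minimum dashed. F48G7.5 is highest at 2.44 in the mutant and 2.78 in wild type, and T25C12.3 lowest at 0.07 and 0.15.

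The 3 genes that cycled in both genotypes peaked later in the mutant, by 2.64 h for F48G7.5, 3.19 h for Y39G8B.10 and 3.01 h for C17E7.13. Over the 2038 genes oscillating in both, the median lag was 2.81 h, with quartiles of 2.68 h and 2.93 h. A phase repeats every cycle, and lags are given on the cycle nearest to 3 h. Their mutant amplitudes were 0.878, 0.868 and 0.82 of the wild-type ones, where the median over the 2038 genes was 0.749 (quartiles 0.669 and 0.865). These lag and amplitude comparisons are between the genotypes and were not tested for the 6 genes.

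The rhythms of the 3 genes also ran together hour by hour. F48G7.5 and Y39G8B.10 had a Pearson r of log2 CPM of 0.79 in the mutant and 0.93 in wild type, F48G7.5 and C17E7.13 of 0.80 and 0.82, and Y39G8B.10 and C17E7.13 of 0.50 and 0.76 (14 libraries each). These are descriptions over libraries that share a culture and a depth.

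K09C6.9 and T25C12.3 were not called oscillating in either genotype. K09C6.9 had amplitudes of 0.24 log2 in the mutant (adjusted p = 0.588, edgeR) and 0.42 log2 in wild type (adjusted p = 0.051). T25C12.3 had 0.07 log2 in the mutant (adjusted p = 0.435) and 0.15 log2 in wild type (adjusted p = 0.000245), where the rhythm passed the test, as for 30.1% of genes at any amplitude, and was below the minimum size. Its wild-type crests were fitted at 19.95 h and 26.95 h, and the hourly values were highest at 20 h and at 26 to 28 h. T25C12.3 also changed over the hours in wild type by 0.38 log2 (edgeR adjusted p = 3.54e-05, passed by 32% of genes at any size), below the minimum of 1 log2 for a gradual call, and by 0.14 log2 in the mutant (adjusted p = 0.308).

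F09C8.1 rose over the sampled hours in both genotypes, by 1.87 log2 in the mutant (SE 0.23, edgeR adjusted p = 2.76e-05) and 3.51 log2 in wild type (SE 0.55, adjusted p = 0.000142). A gradual rise of at least 1 log2 was called for 8.31% of genes in the mutant and 14.9% in wild type. The wild-type rise rested on the 3 late libraries: with 18 to 28 h alone it was 1.23 log2 and did not pass (adjusted p = 0.0327). The linear term does not separate a late step from a steady rise. Its amplitude was 0.74 log2 in the mutant (SE 0.10, adjusted p = 0.000113), with crests fitted at 18.34 h and 25.34 h, and 0.70 log2 in wild type (SE 0.25, adjusted p = 0.086). Mutant values were lowest at 22 h, high at 24 to 27 h and highest at 31 h. From 28 h to 30 h they stood at 20.6, 26 and 25.3 CPM, without a second fall like that at 22 h. None of the other 5 genes was called gradual in either genotype. For F48G7.5 the fitted wild-type change of -1.86 log2 missed the threshold (edgeR adjusted p = 0.0117) and passed with DESeq2 (0.0043), with a period of 7.4 h (0.000723), and without the library of 25 h (0.00735) or 28 h (0.0092). That of C17E7.13 (-1.46 log2, adjusted p = 0.027) passed without 25 h (0.0089) or 29 h (0.00882).

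The r values above used unscaled log2 CPM, and those below log2 CPM scaled by TMM. Genes whose level followed each of the 6 most closely over the 28 libraries were picked from 12169 genes by Pearson r of the scaled values. For F48G7.5 these were T19D12.1 (r = 0.92), *rcs-1* (0.92) and the innexin gene *inx-17* (0.90). The same T19D12.1 (0.89) and F48G7.5 itself (0.89) were, after *ampd-1*, an AMP deaminase gene (0.90), the closest to Y39G8B.10. For C17E7.13 they were *slc-25A18.1* (0.88), F48G7.5 (0.84) and F30F8.5 (0.84). Within a genotype, r for these pairs was 0.69 to 0.85 in the mutant and 0.81 to 0.96 in wild type. T19D12.1, the closest to F48G7.5, averaged 106.8 CPM in the mutant and 156.1 CPM in wild type over the paired hours, and its fitted difference was -0.56 log2.

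For T25C12.3 and K09C6.9 the likeness was weaker within a genotype than over all 28 libraries. T25C12.3 was closest to *unc-54*, a muscle myosin heavy chain gene (r = 0.96), *irg-5*, an infection response gene (0.95), and *clik-1* (0.95). Within a genotype, r was 0.60, 0.05 and 0.32 in the mutant and 0.69, 0.73 and 0.47 in wild type. K09C6.9 was also closest to *irg-5* (0.92), with the troponin C gene *pat-10* (0.90) and the bZIP factor gene *zip-3* (0.89), for which r was 0.61, 0.55 and 0.32 in the mutant and 0.68, 0.50 and 0.68 in wild type. *irg-5* averaged 43.9 CPM in the mutant and 113.6 CPM in wild type over the paired hours, a fitted difference of -1.40 log2. Like T25C12.3, *irg-5* and *unc-54* were among the 7 genes whose groups did not overlap in the lower direction. Both were picked by r over all 28 libraries, which includes the gap between genotypes, so a separation is favoured by the pick. It was not tested.

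F09C8.1 was closest to *lys-7*, a lysozyme gene (r = 0.95), *far-3*, a fatty acid and retinol binding protein gene (0.92), and *spp-18*, a saposin-like protein gene (0.92). Here the likeness held within the genotypes too, with r of 0.86, 0.72 and 0.63 in the mutant and 0.91, 0.87 and 0.88 in wild type. *lys-7* averaged 93.4 CPM in the mutant and 22.0 CPM in wild type over the paired hours and had a fitted difference of 2.03 log2. *far-3* averaged 5.60 CPM in the mutant and 0.662 CPM in wild type (3.09 log2), and *spp-18* averaged 44.8 and 16.8 CPM (1.42 log2). These genes were selected for their likeness, and nothing was tested on them.

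Neighbouring genes were examined to see whether the differences extended along the chromosome. The counts table held 13 genes next to or overlapping the 6, and 7 had enough reads to test. Of these 1 differed, where 18.9% of all genes did: Y39G8B.9, beside Y39G8B.10 on the opposite strand, averaged 51.8 ± 10.0 CPM in the mutant and 79.6 ± 34.4 CPM in wild type (SD, n = 11 each) and was lower in 10 of 11 pairs (-0.57 log2, SE 0.07, edgeR adjusted p = 5.74e-05). It oscillated in wild type with an amplitude of 0.74 log2 and was not called in the mutant (0.37 log2), a difference that was not tested.

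The other 6 neighbours tested did not pass. F09C8.2, the nearest gene on one side of F09C8.1, averaged 91.7 ± 6.03 CPM in the mutant and 93.7 ± 7.73 CPM in wild type (-0.07 log2, SE 0.04, edgeR adjusted p = 0.164). *nlp-67*, a neuropeptide-like gene on its other side, differed by 0.25 log2 (SE 0.17, adjusted p = 0.301). F29G6.1, next to T25C12.3, averaged 28.2 ± 10.3 CPM in the mutant and 28.5 ± 15.9 CPM in wild type (0.05 log2, SE 0.09, adjusted p = 0.74). F48G7.4, next to F48G7.5, differed by 0.47 log2 (SE 0.18, adjusted p = 0.0723), which is in the other direction from F48G7.5. *nhr-124*, a nuclear receptor gene next to C17E7.13, and K09C6.2, next to K09C6.9, averaged under 1 CPM in both genotypes over the paired hours, with differences of -0.42 log2 (SE 0.27) and -0.50 log2 (SE 1.59).

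**Figure D4:**
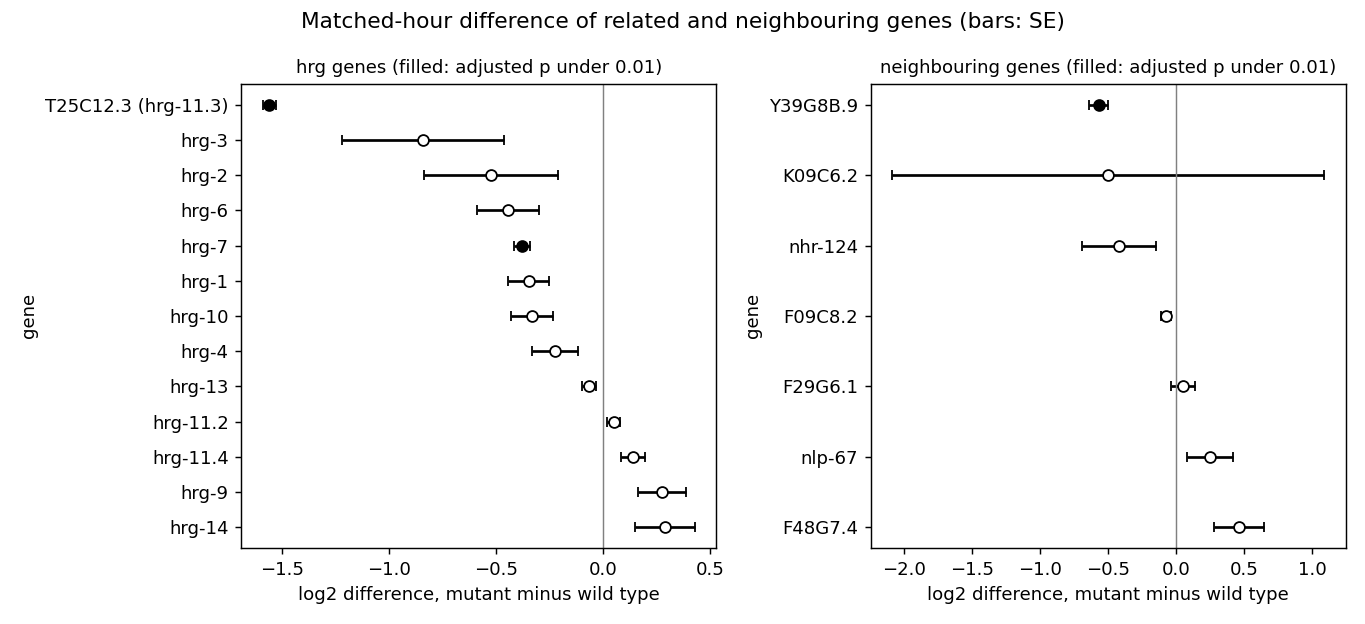
Points give the fitted log2 difference, mutant minus wild type, at matched hours for the 13 *hrg* genes tested (left) and the 7 neighbouring genes tested (right), with SE as error bars and filled where the adjusted p was under 0.01. T25C12.3, whose call the choice fixed, stands at -1.56, *hrg-7* is filled at -0.38 and Y39G8B.9 is filled at -0.57.

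The symbol of T25C12.3 places it in a group of genes named *hrg*, for heme-responsive gene. Worms cannot make heme and take it from food, and the proteins first given this name move heme across membranes or between tissues. The table held 14 *hrg* genes, of which 13 had enough reads to test. T25C12.3 is among the 13, and its call was fixed by the choice. Besides T25C12.3, *hrg-7*, a gene of heme signalling from the intestine, was lower: it averaged 145.5 ± 43.5 CPM in the mutant and 181.6 ± 45.3 CPM in wild type (SD, n = 11 each), lower in 11 of 11 pairs (-0.38 log2, SE 0.04, edgeR adjusted p = 1.02e-05). The rest did not pass at an adjusted p under 0.01, where 9.16% of all genes passed in the lower direction.

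The genes closest to T25C12.3 by symbol did not pass the test. *hrg-11.2* averaged 446.6 ± 54.3 CPM in the mutant and 417.8 ± 51.3 CPM in wild type (SD, n = 11 each; 0.05 log2, SE 0.03, edgeR adjusted p = 0.209). *hrg-11.4* averaged 44.4 ± 9.20 CPM in the mutant and 39.4 ± 9.44 CPM in wild type (0.14 log2, SE 0.06, adjusted p = 0.0764). The intestinal heme importer gene *hrg-4* differed by -0.22 log2 (SE 0.11, adjusted p = 0.144) and the heme transporter gene *hrg-1* by -0.35 log2 (SE 0.10, adjusted p = 0.0155). After T25C12.3 at -1.56 log2, the most negative fitted value was that of *hrg-3* at -0.84 log2 (SE 0.38, adjusted p = 0.113), which rested on under 2 CPM in every library.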

How the data were processed

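Raw read counts per gene were deposited. The authors aligned the reads to ce10 (HISAT2 in the submitters' processing notes, no version stated) through QuasR and counted them over WS220 exons on the kit's strand. How reads fitting several near-identical genes were counted is not given in the sources used here. The authors' log2 values were not used. edgeR 4.0.16 in R 4.3.3 ran the tests (quasi-likelihood, TMM, filterByExpr, Benjamini-Hochberg at 0.01). For the matched comparison, B-splines of the matched hour with 6 components were fitted in each genotype (14 parameters in all, 8 residual degrees of freedom), and the genotype contrast was averaged over 11 hours. DESeq2 1.42.0 and limma 3.58.1 (pseudocount 8) were alternatives. The fits were tested on simulated data. All 6 genes passed every filter. The genes and lists were chosen with earlier results of these data known. The text names the 6 genes, *ebax-1*, the 3 genes most like each and the nearest annotated genes. Likeness was read from TMM-scaled log2 CPM with a prior count of 2. The *hrg* list and the ranks of sequence-name-only genes were added after the data were seen. Paralogs and promoter motifs were not analysed here. Counting intervals are exact Poisson at 95%.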

Additional observations from a re-analysis of the deposited data

How the results depend on the processing

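The 6 genes were chosen on their matched difference, so the alternative runs describe it and give it no independent support. All 6 genes kept the direction of their matched difference under every alternative run: other size factors, library totals, no low-count filter, DESeq2, limma, mutant hours 2 h or 4 h later, the same hour, and leaving out each pair. Those of F48G7.5 ran from -3.01 to -1.92 log2, Y39G8B.10 from -1.90 to -1.02, C17E7.13 from -2.02 to -0.96, K09C6.9 from -1.84 to -1.26, T25C12.3 from -1.58 to -1.51 and F09C8.1 from 2.31 to 3.23. The ends nearest 0 for the 4 low-count genes F48G7.5, Y39G8B.10, C17E7.13 and K09C6.9 came from limma on log2 values with the pseudocount of 8, which compresses low levels. The count of genes that differ was 2648 and became 4047 at the same hour. Of the 2648, 51.5% were higher in the mutant. With library totals alone 68.5% of 2763 were higher, and with limma 71.2% of 2174. Without 1 pair at a time the count was 2009 to 2599. Oscillating genes numbered 2415 in the mutant and 2738 in wild type (2232 to 2479 and 2538 to 2743 without 1 library). Gradual genes numbered 1684 in the mutant (1154 to 1676 without 1 library) and 2950 in wild type (2351 to 2904), and 1312 in wild type at 18 to 28 h. Without 1 library, 10 amplitude calls of Y39G8B.10 and C17E7.13 were lost, as given above. Limma with the pseudocount of 8 also lowered amplitudes. Those of Y39G8B.10 were 0.75 log2 in the mutant and 1.10 log2 in wild type, and those of C17E7.13 0.54 and 0.87 log2. These calls held. Depth limits Y39G8B.10 and C17E7.13 most. A fit with the 11 matched pairs as a block, chosen after the data were seen, called 2303 genes and kept the direction of all 6. It changed 0 of the calls on the 20 neighbouring and *hrg* genes. T25C12.3 is among these 20, and its call was fixed by the choice. The uncalled K09C6.2 was 0.20 log2 there, against -0.50.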
